A study of Homo sapiens with 9 samples.

Results

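Notch signalling genes were followed in MCF10A cells, a non-tumorigenic human breast epithelial cell line, after knockdown of CHAF1B. The members are 10 genes taken by symbol: the receptors NOTCH1, NOTCH2 and NOTCH3, the ligands JAG1, JAG2 and DLL1, the DNA-binding effector RBPJ, the target genes HES1 and HEY1, and the inhibitor NUMB. All 10 were found among the 26186 genes of the deposited count table, and 9 of them passed the filter on low counts that left 16235 genes for testing. The exception was DLL1.

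CHAF1B encodes a subunit of chromatin assembly factor 1 (CAF-1), which places histones H3 and H4 on newly copied DNA, and the study asked how gene expression is reprogrammed when CAF-1 is suppressed. The groups were cells transduced with the short hairpin shCHAF1B-1 (3 libraries), cells with a second hairpin, shCHAF1B-2 (3 libraries), and cells with shGFP, a hairpin against green fluorescent protein, which is no human gene (3 libraries). Every group received lentivirus, was put under 2 µg/mL puromycin 24 hours later and was harvested on day 3 after infection, in medium with horse serum, insulin, cholera toxin, epidermal growth factor and hydrocortisone. All are 1 cell line, and the labels do not say whether the 3 libraries of a group came from separate cultures, so the p-values measure the spread between these libraries, which may be technical.

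Notch receptors are single-pass membrane proteins that are cut when a ligand of the Jagged or Delta-like family on a neighbouring cell pulls on them. The cut frees the intracellular domain, which enters the nucleus, joins RBPJ on DNA and switches on targets such as the HES and HEY repressors. In breast epithelium the pathway is known for its part in luminal fate choice, and in other epithelia for control of differentiation.

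The libraries held 24339914 to 31819468 counts. CHAF1B was at 3.29 ± 0.670 CPM (counts scaled to library size by the TMM method; SD, n = 3) under shCHAF1B-1 and 3.21 ± 0.623 CPM under shCHAF1B-2, against 37.7 ± 3.00 CPM with shGFP. All 10 basal mammary epithelial markers were detected in every library, and most of them changed: 4 were called higher and 5 lower under both hairpins. Of all tested genes, 23.8% were called higher and 20.8% lower under both. The keratin genes KRT5, KRT14 and KRT17 fell, KRT17 by 1.14 and by 1.19 on the log2 scale, and LAMB3, for a laminin chain, rose by 1.47 and 1.36. Their summed level, 10474 to 11699 CPM in the knockdown libraries and 11528 to 12448 CPM in the shGFP libraries, hides these opposite moves. Replicate 3 of shCHAF1B-1 stood apart: the 14 B lymphocyte markers in the table summed to 403 CPM there, against 2.97 to 4.60 CPM in the other 8 libraries, and results that rest on it are given with and without it. B lymphocyte markers at 0 numbered 0 of 14 there and 1 to 3 in the others. Endothelial markers (8 in the table) summed to 11.1 to 13.0 CPM in the knockdown libraries and 4.19 to 4.88 CPM in the shGFP libraries. Most of that sum was PECAM1, at 7.92 to 10.0 CPM in the knockdown libraries and 2.04 to 2.98 CPM in the shGFP libraries, the 1 of 4 tested endothelial markers called under both hairpins. Fibroblast markers summed to 77.5 to 85.7 CPM in the knockdown libraries and 58.5 to 63.3 CPM in the shGFP libraries. Of these, 2 of 4 tested markers, FAP and COL1A1, were called higher under both hairpins, and TWIST1 and TWIST2 were not called. FAP was at 39.3 to 43.9 CPM in the knockdown libraries and 26.1 to 29.2 CPM in the shGFP libraries. PDGFRA, PDGFRB, LUM and THY1, not tested, had 25 or fewer summed counts in each group. LUM and PDGFRB had fewer under both hairpins than with shGFP, and PDGFRA and THY1 had more. The endothelial count of 1 of 4 is near the 23.8% of all tested genes called higher under both. A knockdown library had 0 to 2 of 8 endothelial markers at 0 counts and a shGFP library 2 to 4, and any library had 0 to 2 of 8 fibroblast markers at 0. The part of these markers in the Notch results was not tested. In bulk RNA, fewer cells of a type and less RNA per cell cannot be told apart.

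Across the Notch genes, NOTCH2, JAG1, RBPJ, HEY1 and NUMB were higher under both hairpins, and NOTCH1 was lower under both. With shCHAF1B-1, 6 of the 9 tested genes passed an adjusted p of 0.05 (edgeR quasi-likelihood test, Benjamini-Hochberg over all 16235 genes), 5 higher and 1 lower. At that threshold 53.2% of all tested genes passed, 27.9% higher and 25.2% lower. With shCHAF1B-2, 7 of the 9 passed, 5 higher and 2 lower, against a background of 51.3% of all genes, 26.7% higher and 24.6% lower. The median log2 fold change of the 9 genes was 0.44 and 0.39 under the hairpins in that order, while that of all tested genes was -0.00 and -0.01. Their median absolute log2 fold change was 0.44 and 0.43, against 0.30 and 0.29 for all tested genes, so the Notch genes lay somewhat above the middle of a transcriptome in which about every other gene was called. The hairpin comparisons share the shGFP libraries.

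In both comparisons 5 of the 9 genes were called higher, where 23.8% of all genes were, and 1 was called lower, where 20.8% were. In these same 5 genes all 6 knockdown libraries lay above all 3 shGFP libraries, a pattern seen in 25.8% of all tested genes. No tested member had all 6 knockdown libraries below the 3 shGFP libraries, against 22.7% of all tested genes. Without replicate 3 of shCHAF1B-1, the counts of members called were again 6 and 7.

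**Figure D1:**
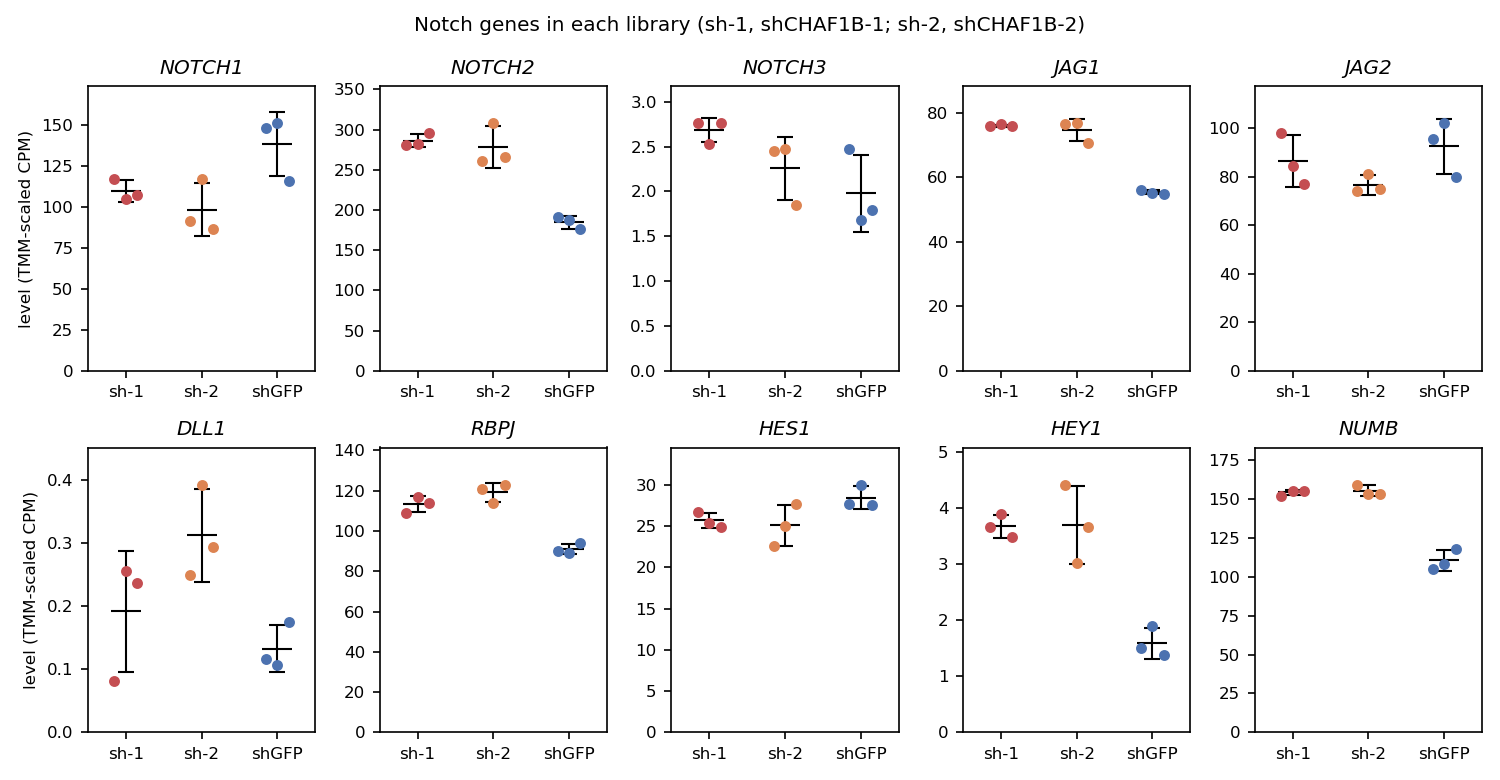
Level of each of the 10 Notch genes in each library, in TMM-scaled CPM on a linear axis from 0; points are replicates 1 to 3 from left to right and bars are the mean and SD (n = 3). NOTCH2, JAG1, RBPJ, HEY1 and NUMB show 2 separate levels, whereas NOTCH1, NOTCH3, JAG2, DLL1 and HES1 overlap between knockdown and shGFP libraries.

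Among the receptors, NOTCH2 rose and NOTCH1 fell. NOTCH2 (ENSG00000134250.19, chr1:119911553-120069626, GRCh38, minus strand) is the receptor with the longest message of the members. It stood at 281, 282 and 296 CPM with shCHAF1B-1 and at 261, 308 and 266 CPM under shCHAF1B-2, against 191, 187 and 176 CPM with shGFP. Every knockdown library was above every shGFP library. The log2 fold change was 0.63 (SE 0.0613, edgeR adjusted p = 1.3e-06) with shCHAF1B-1 and 0.59 (SE 0.0614, adjusted p = 2.8e-06) with shCHAF1B-2, or 1.55-fold and 1.51-fold. NOTCH2 has near-identical partial copies in the genome; the copy that the table lists, NOTCH2NLA, had 52 counts over all 9 libraries, and reads shared with other copies were not analysed here.

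NOTCH1 (ENSG00000148400.10, chr9:136494433-136545786, minus strand), the receptor best known from T-cell leukaemia and skin differentiation, had 117, 105 and 107 CPM with shCHAF1B-1 and 91.5, 117 and 86.6 CPM under shCHAF1B-2. The shGFP libraries had 148, 151 and 116 CPM. Replicates 1 and 2 of shGFP were above all knockdown libraries, and replicate 3 of shGFP lay among them. NOTCH1 fell by 0.33 on the log2 scale with shCHAF1B-1 (SE 0.110, edgeR adjusted p = 0.0206) and by 0.49 with shCHAF1B-2 (SE 0.111, adjusted p = 0.00206). The shCHAF1B-1 call was lost in DESeq2 (adjusted p = 0.0542), without shCHAF1B-1 replicate 2 (0.0731) and without shGFP replicate 1 (0.0841) or 2 (0.0887), and it held without the library with B lymphocyte transcripts (adjusted p = 0.0472).

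NOTCH3 (ENSG00000074181.8, chr19:15159038-15200981, minus strand), best known from vascular smooth muscle, was scarce, at 2.76, 2.53 and 2.76 CPM with shCHAF1B-1 and 2.45, 2.47 and 1.85 CPM under shCHAF1B-2. The shGFP libraries had 2.47, 1.68 and 1.79 CPM. The shCHAF1B-1 libraries were all above the shGFP libraries by a small margin, and those of shCHAF1B-2 overlapped them. The log2 fold change was 0.44 (95% interval 0.06 to 0.82) with shCHAF1B-1 and 0.20 (-0.20 to 0.59) with shCHAF1B-2, with edgeR adjusted p-values of 0.0508 and 0.399. The first value passed 0.05 with RLE size factors (0.0496), limma-voom (0.0394) or a filter at 1 CPM (0.0489), and without shGFP replicate 1 (0.0135) or shCHAF1B-2 replicate 3 (0.0360). With the hairpins averaged, the change was 0.32 (edgeR adjusted p = 0.101), and it passed under 2 of 19 alternatives.

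Set side by side per kilobase of merged exons, the receptors changed places. NOTCH2 made up 61.1% ± 1.77 of the summed receptor counts per kilobase with shCHAF1B-1 and 63.2% ± 1.79 with shCHAF1B-2, against 45.0% ± 2.68 with shGFP (SD, n = 3 each). NOTCH1 made up 37.9% ± 1.76 and 35.9% ± 1.75 under these hairpins, against 54.2% ± 2.73 with shGFP. NOTCH3 stayed near 1 percent, at 1.02% ± 0.0278 and 0.917% ± 0.130, against 0.860% ± 0.161. The ratio of NOTCH2 to NOTCH1 per kilobase was 1.48, 1.66 and 1.70 with shCHAF1B-1 and 1.76, 1.63 and 1.90 with shCHAF1B-2, against 0.797, 0.763 and 0.939 with shGFP, with no overlap. The order in shGFP cells depends on the length used: over the longest annotated transcript NOTCH2 was at 67.5% with shCHAF1B-1 and 69.4% with shCHAF1B-2, against 51.9% with shGFP, and NOTCH1 at 31.7% and 29.8%, against 47.3%. The NOTCH2 share was higher in the knockdown groups under either length. The shares are values with no test of their own.

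**Figure D2:**
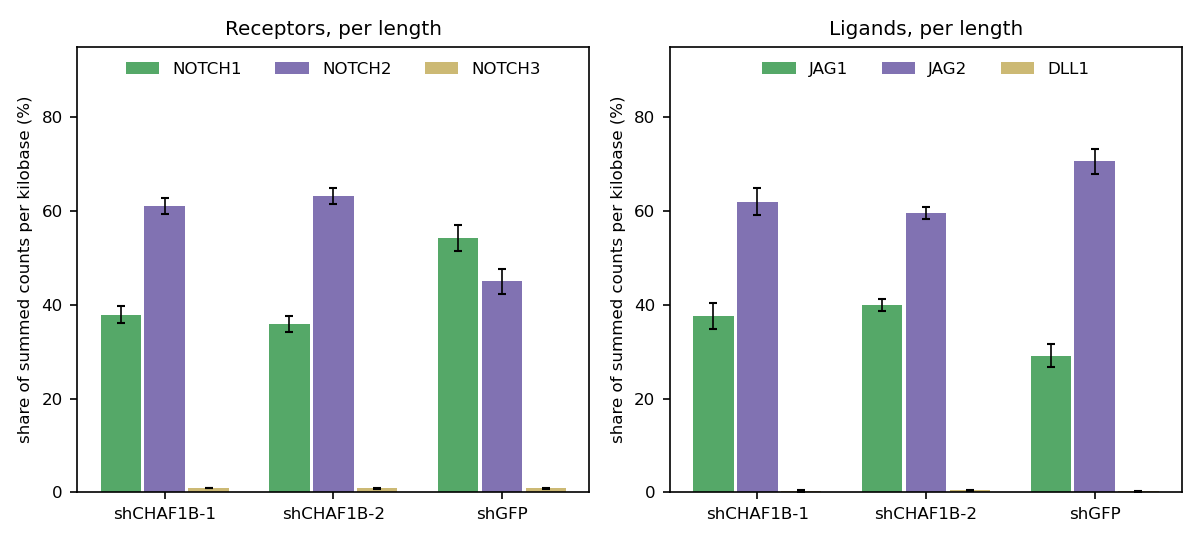
Share of each receptor (left) and ligand (right) in the summed counts per kilobase of merged exons, in percent from 0; bars are means and whiskers SD of 3 libraries. NOTCH2 is the larger receptor share in both knockdown groups (61.1% and 63.2%) and the smaller one with shGFP (45.0%), while JAG2 is the larger ligand share in all groups.

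The ligands gave a similar picture of one gene higher and another not. JAG1 (ENSG00000101384.12, chr20:10637684-10673999, minus strand), a Jagged ligand, had 75.8, 76.4 and 75.8 CPM with shCHAF1B-1 and 76.5, 76.8 and 70.7 CPM under shCHAF1B-2, against 56.0, 55.2 and 54.8 CPM with shGFP. The groups were far apart for the small spread within them. JAG1 rose by a log2 fold change of 0.46 (SE 0.0467, edgeR adjusted p = 2.2e-06) with shCHAF1B-1 and 0.43 (SE 0.0469, adjusted p = 4.3e-06) with shCHAF1B-2. An annotated antisense gene, AL050403.2, overlaps 79 bases of its exons, and the kit does not mark strand. Reads of these bases cannot be told apart by strand, and how the deposited counts treated them was not analysed here.

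JAG2 (ENSG00000184916.8, chr14:105140981-105168824, minus strand), the other Jagged ligand, had 97.9, 84.2 and 77.0 CPM with shCHAF1B-1 and 73.9, 81.1 and 74.7 CPM under shCHAF1B-2. The shGFP libraries had 95.6, 102 and 79.8 CPM. The groups overlapped, since shCHAF1B-1 replicate 1 reached the shGFP level and shGFP replicate 3 was lower than several knockdown libraries. The log2 fold change was -0.10 (95% interval -0.30 to 0.10, edgeR adjusted p = 0.388) with shCHAF1B-1, and JAG2 fell by 0.27 (SE 0.0935, adjusted p = 0.0259) with shCHAF1B-2. That call was lost when any of 4 libraries was left out, with an adjusted p of 0.0732 without shCHAF1B-2 replicate 1, 0.0668 without shCHAF1B-2 replicate 3, 0.0832 without shGFP replicate 1 and 0.124 without shGFP replicate 2. The shCHAF1B-1 value was -0.02 without the library with B lymphocyte transcripts. With the hairpins averaged, the change was -0.19 (edgeR adjusted p = 0.0617), and it passed under 7 of 19 alternatives. A processed transcript, AL512356.1, shares 469 exonic bases with JAG2 on the same strand.

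DLL1 (ENSG00000198719.8, chr6:170282206-170306565, minus strand), a Delta-like ligand, was close to the limit of detection. Its raw counts were 2, 8 and 6 with shCHAF1B-1 and 6, 10 and 7 with shCHAF1B-2, against 3, 3 and 5 with shGFP. Pooled over libraries, the depth-scaled ratio to shGFP was 1.48 (95% exact interval 0.643 to 3.52) with shCHAF1B-1 and 2.35 (1.10 to 5.34) with shCHAF1B-2, intervals that cover counting error only. Without a filter on low counts, the edgeR adjusted p was 0.499 and 0.0742. No DLL1 difference passed that test at this depth.

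Per kilobase, JAG1 made up 37.7% ± 2.79 of the ligand counts with shCHAF1B-1 and 40.0% ± 1.27 with shCHAF1B-2, against 29.2% ± 2.53 with shGFP. The ratio of JAG1 to JAG2 was 0.533, 0.624 and 0.677 with shCHAF1B-1 and 0.712, 0.652 and 0.650 with shCHAF1B-2, against 0.403, 0.371 and 0.473 with shGFP. These ranges do not overlap, although those of JAG2 alone do. JAG2 was the more abundant of the pair per kilobase of merged exons in each library; over the longest transcript, the JAG1 share averaged 46.4% and 48.7% with the hairpins, against 37.1% with shGFP, and reached 50.3% in 1 shCHAF1B-2 library.

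RBPJ (ENSG00000168214.20, chr4:26163455-26435131, plus strand) is the DNA-binding protein through which cleaved receptors act, and in their absence it recruits corepressors. It had 109, 117 and 114 CPM with shCHAF1B-1 and 121, 114 and 123 CPM under shCHAF1B-2, against 90.2, 89.1 and 93.9 CPM with shGFP. Knockdown and shGFP libraries did not overlap. RBPJ rose by a log2 fold change of 0.32 (SE 0.0473, edgeR adjusted p = 7.3e-05) with shCHAF1B-1 and 0.39 (SE 0.0474, adjusted p = 1.2e-05) with shCHAF1B-2.

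HES1 (ENSG00000114315.3, chr3:194136145-194138732, plus strand), a basic helix-loop-helix repressor and the standard readout of Notch activity, did not pass the test under either hairpin. It had 26.7, 25.4 and 24.9 CPM with shCHAF1B-1 and 22.6, 25.0 and 27.6 CPM under shCHAF1B-2, against 27.7, 30.0 and 27.5 CPM with shGFP. The shCHAF1B-1 libraries were all slightly below the shGFP libraries, and the shCHAF1B-2 libraries reached into them. The log2 fold change was -0.15 (95% interval -0.30 to 0.01) with shCHAF1B-1 and -0.18 (-0.34 to -0.02) with shCHAF1B-2, with edgeR adjusted p-values of 0.105 and 0.0553. With the hairpins averaged, the change was -0.16 (edgeR adjusted p = 0.0392), a call that was lost under 12 of 19 alternatives. The shCHAF1B-2 value passed under 3 of 20 alternatives, with an adjusted p as low as 0.0101.

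HEY1 (ENSG00000164683.16), the other repressor among the targets, had the largest fold change of the 9 tested members, on low counts. It had 3.66, 3.88 and 3.47 CPM with shCHAF1B-1 and 4.41, 3.02 and 3.66 CPM under shCHAF1B-2, against 1.5, 1.90 and 1.37 CPM with shGFP. All 6 knockdown libraries exceeded all shGFP libraries. The summed counts behind these levels were 299 and 270, against 131. HEY1 rose by a log2 fold change of 1.21 (SE 0.173, edgeR adjusted p = 5.2e-05) with shCHAF1B-1 and 1.21 (SE 0.174, adjusted p = 5.7e-05) with shCHAF1B-2. The change held under each alternative run, between 1.10 and 1.35 with shCHAF1B-1 and between 1.06 and 1.36 with shCHAF1B-2. Per kilobase, HEY1 was at 0.0913 ± 0.00549 of the HES1 level with shCHAF1B-1 and 0.0953 ± 0.0256 with shCHAF1B-2, against 0.0356 ± 0.00439 with shGFP (SD, n = 3 each), so it stayed far below HES1 in every group.

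The promoters of HES1 and RBPJ are shown because they are the ones among the members that hold the core of the RBPJ binding site, TGGGAA (searched on both strands, so also as TTCCCA). They are the 250 bases before the annotated start, 5′ to 3′ on the gene's strand, from RefSeq on GRCh38.p14, with the match in capitals. The first is HES1 at chr3:194135898-194136147 and the second is 1 of 5 RBPJ starts, at chr4:26319496-26319745.
HES1: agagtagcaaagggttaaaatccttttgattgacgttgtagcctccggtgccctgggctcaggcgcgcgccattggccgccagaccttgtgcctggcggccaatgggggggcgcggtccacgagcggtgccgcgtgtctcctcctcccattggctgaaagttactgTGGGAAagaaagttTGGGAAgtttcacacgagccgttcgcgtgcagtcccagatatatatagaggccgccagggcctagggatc
RBPJ: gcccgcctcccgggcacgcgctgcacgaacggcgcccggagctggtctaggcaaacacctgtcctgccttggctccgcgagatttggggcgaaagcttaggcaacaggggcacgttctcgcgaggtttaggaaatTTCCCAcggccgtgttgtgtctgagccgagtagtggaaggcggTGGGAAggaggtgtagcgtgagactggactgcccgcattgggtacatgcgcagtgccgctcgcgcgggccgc

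HES1 held 2 matches on its own strand, at bases 84 to 79 and 70 to 65 before the start. RBPJ held 1 match on the opposite strand at bases 115 to 110 and 1 on its own strand at bases 72 to 67. The other 4 RBPJ starts and the promoters of NOTCH1, NOTCH2, NOTCH3, JAG1, JAG2 and NUMB held none in this window; HEY1 and DLL1 are not included. Of 35116 RefSeq promoters of the same length, 20.8% held at least 1 match and 2.9% held 2 or more. The N box CACNAG, a site of HES repressors that does not overlap the core in these windows, occurred 3 times in the HES1 window. The NOTCH3 window and the RBPJ window at chr4:26163208-26163457 held 1 each, and the other member windows held none. Of all promoters, 32% held at least 1 N box and 6.32% held 2 or more. A match is a string of letters, not a bound site.

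NUMB (ENSG00000133961.20, chr14:73275107-73458617, minus strand), an endocytic adaptor that limits Notch signalling and is handed unequally to daughter cells, had 152, 155 and 155 CPM with shCHAF1B-1 and 159, 153 and 153 CPM under shCHAF1B-2. The shGFP libraries had 105, 108 and 118 CPM. The levels were apart by more than the whole spread within groups. NUMB rose by a log2 fold change of 0.48 (SE 0.0482, edgeR adjusted p = 1.8e-06) with shCHAF1B-1 and 0.50 (SE 0.0483, adjusted p = 1.6e-06) with shCHAF1B-2, close to the rise of JAG1. A processed transcript, AC005280.3, shares 217 exonic bases with NUMB on the same strand.

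**Figure D3:**
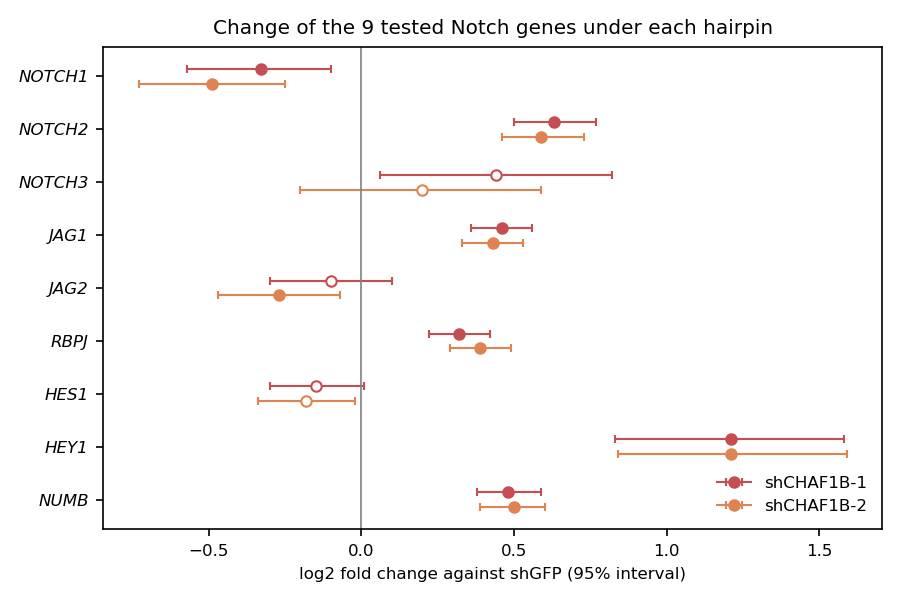
Log2 fold change of the 9 tested Notch genes against shGFP, with 95% intervals from the edgeR fit; filled points passed an adjusted p of 0.05 and open points did not. NOTCH2, JAG1, RBPJ, HEY1 and NUMB lie right of 0 under both hairpins, NOTCH1 lies left of 0 under both, and the intervals of the hairpins overlap for each gene.

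The hairpins were then set against each other. No member passed in shCHAF1B-2 against shCHAF1B-1 in edgeR, none of the 9 had an unadjusted p under 0.05, and DESeq2 and limma-voom also called 0. Of all 16235 genes, 0 (0%) passed the adjusted threshold and 1800 had an unadjusted p under 0.05. The lack of calls thus does not show that the hairpins act alike. The intervals of the difference were narrow for the abundant genes, from -0.12 to 0.07 for JAG1, -0.09 to 0.11 for NUMB and -0.17 to 0.09 for NOTCH2 on the log2 scale. They were wide for the scarce or more variable ones, from -0.34 to 0.35 for HEY1, -0.63 to 0.14 for NOTCH3 and -0.40 to 0.08 for NOTCH1.

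In levels per kilobase of merged exons, the shGFP cells had JAG2 at 14.5 ± 1.81 CPM per kilobase, HES1 at 13.8 ± 0.675 and NOTCH1 at 13.3 ± 1.91, which did not differ beyond their spread. NUMB (11.5 ± 0.696) and NOTCH2 (11.0 ± 0.471) came next, also within their spread of each other, and NUMB within that of NOTCH1. RBPJ (9.84 ± 0.270), JAG1 (5.95 ± 0.0672), HEY1 (0.492 ± 0.0854), NOTCH3 (0.211 ± 0.0452) and DLL1 (0.0412 ± 0.0115) followed, each apart from the one before it. In the knockdown cells NOTCH2 led, at 17.0 ± 0.515 CPM per kilobase with shCHAF1B-1 and 16.6 ± 1.51 with shCHAF1B-2. NUMB stood at 16.1 ± 0.172 and 16.3 ± 0.319 there, within the spread of NOTCH2 in shCHAF1B-2 cells. NOTCH1 came sixth in both knockdown groups, at 10.6 ± 0.619 and 9.47 ± 1.55. This order too depends on the length used. Per kilobase of the longest transcript NUMB led in every group, at 29.8 ± 0.318 with shCHAF1B-1 and 30.0 ± 0.589 with shCHAF1B-2, against 21.3 ± 1.28 CPM per kilobase with shGFP. NOTCH2 then followed NUMB in both knockdown groups, at 25.2 ± 0.760 and 24.4 ± 2.23, against 16.2 ± 0.695 with shGFP, where HES1 stood between them.

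The members with overlapping groups included the GC-rich ones. NOTCH1, NOTCH3 and JAG2 transcripts hold 62.9%, 63.1% and 64.0% G and C, above 93.8%, 94.0% and 95.6% of the tested genes, while RBPJ holds 38.0% and NUMB 44.2%. NOTCH1 and JAG2 varied within shGFP by 14.3% and 12.5% (coefficient of variation). The median was 4.43% over 9415 genes of at least 10 CPM. Of the scarce members, NOTCH3 varied by 21.4%, DLL1 by 27.9% and HEY1, with only 47.3% G and C, by 17.4%. NUMB varied by 6.04%, NOTCH2 by 4.29%, RBPJ by 2.74% and JAG1 by 1.13%. HES1, with 49.9% G and C, varied by 4.90%, and its groups overlapped too. The cause of the spread was not tested. The 2089 tested genes with at least 60% G and C moved with the library: their median deviation from the group mean was 0.095 (log2) in shGFP replicate 2 and -0.113 in shGFP replicate 3. NOTCH1 deviated by 0.140 and -0.249 in these libraries and JAG2 by 0.153 and -0.207. In all 9 libraries NOTCH1 and JAG2 deviated in the same direction as the GC-rich genes.

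Each library's trend over GC content and length was then removed before the same edgeR test, an alternative chosen after the data were seen. Trends were taken against the mean of all 9 libraries, so GC and length trends between the groups were removed too. Before this step, genes with at least 60% G and C had median log2 fold changes of 0.07 with shCHAF1B-1 and -0.08 with shCHAF1B-2. After it, NOTCH1 fell by 0.51 under both hairpins (edgeR adjusted p = 9.1e-07 and 1.1e-06). JAG2 then fell by 0.24 with shCHAF1B-1 (adjusted p = 0.00130) and by 0.25 with shCHAF1B-2 (adjusted p = 0.00112), so the shCHAF1B-1 value, not called before, passed. NOTCH3 was at 0.27 and 0.18 and HES1 at -0.09 and -0.13, neither called. The 5 genes called higher kept their calls under both hairpins.

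**Figure D4:**
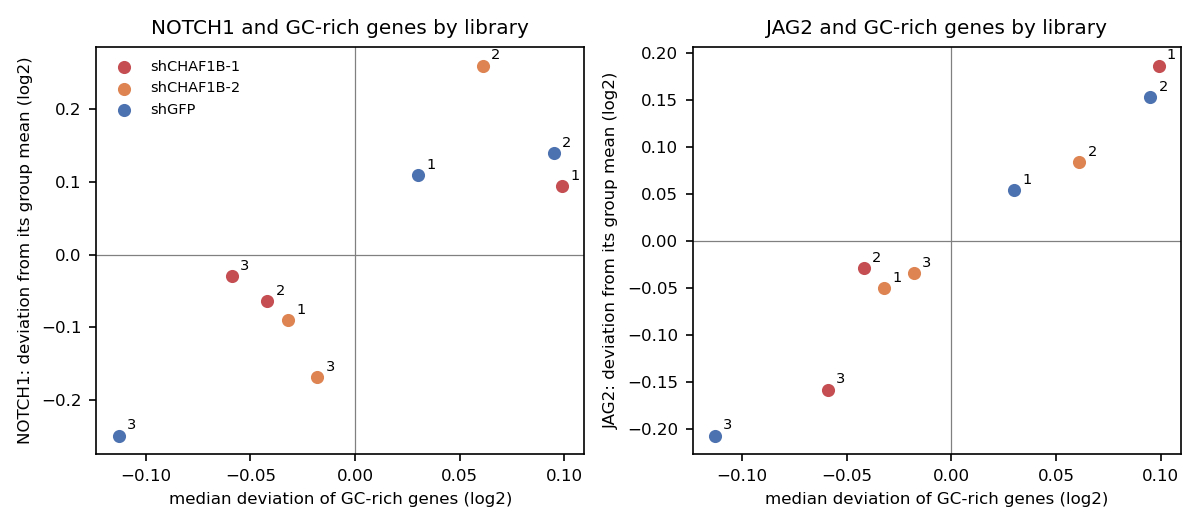
Deviation of NOTCH1 (left) and JAG2 (right) from their group mean in each library, against the median deviation of the 2089 tested genes with at least 60% G and C, both on the log2 scale; numbers are replicates. For both genes the libraries in which GC-rich genes were low are those in which the gene was low, with shGFP replicate 3 lowest.

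Genes most like NOTCH1, JAG1 and HES1 over the 9 libraries were taken by Pearson correlation of log2 CPM among 11762 protein-coding genes, as a description of libraries that share depth and group structure. Among the genes nearest to NOTCH1 were FASN (0.987) and C1orf159 (0.980). JAG1 was nearest to RASAL2, KLF7 and VEGFA (0.997 each), and 1386 genes were above 0.95 with it, against 33 for NOTCH1 and 9 for HES1. HES1 was nearest to LCMT2 (0.983), UBXN1 (0.975) and METTL23 (0.957).

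Beyond the members, 86 genes of the pathway were listed by function, of which 77 were tested. Under both hairpins 33 of the 77 were called higher and 9 lower, where 23.8% and 20.8% of all tested genes were, and 34 and 8 without shCHAF1B-1 replicate 3. Of the 77, 4 passed the filter only through the side with more counts, NOTCH4, MFAP2 and TLE2 through knockdown libraries and MFAP5 through the shGFP libraries; of the other 73 genes 31 were called higher and 8 lower. The median log2 fold change of all 77 was 0.14 with shCHAF1B-1 and 0.13 with shCHAF1B-2. In what follows, a pair of log2 fold changes gives shCHAF1B-1 and shCHAF1B-2, each against shGFP. A call under 1 hairpin alone does not show that the hairpins differ: shCHAF1B-2 against shCHAF1B-1 was called in 0 of the 77 genes.

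The fourth receptor, NOTCH4, known from endothelium, had 19, 37 and 30 counts with shCHAF1B-1 and 14, 25 and 20 with shCHAF1B-2, against 5, 4 and 2 with shGFP. It was thus low everywhere and higher in each knockdown library. The pooled ratio was 7.93 (95% exact interval 4.22 to 16.5) and 6.03 (3.14 to 12.7), intervals that cover counting error only. NOTCH4 entered the edgeR test through the knockdown libraries alone, since no shGFP library reached the minimum count. Its call there is therefore not used as support. Of the endothelial markers PECAM1 rose under both hairpins, while KDR (0.22 and 0.30) and ESAM (0.61 and 0.45) were not called and TEK was called with shCHAF1B-1 only (0.89 and 0.52); their part was not tested.

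Of the other ligands 5 were tested, among them a pair, MFAP2 and MFAP5, that passed the filter only through the side in which they are high. Passing in this way favours genes that differ, so no edgeR p-value is given for this pair. MFAP2, a microfibril protein that binds Jagged ligands, had 39, 40 and 25 counts with shCHAF1B-1 and 19, 21 and 15 with shCHAF1B-2, and 0 in all 3 shGFP libraries. Against a floor of 3 counts per shGFP library it was at least 11.7-fold and 6.87-fold higher. MFAP5, its relative, went the other way, at 11, 8 and 3 and 10, 5 and 9 counts, against 59, 47 and 42 counts with shGFP. On the log2 scale MFAP5 fell by 2.71 and 2.44. DLK2, a non-canonical ligand, rose by 0.36 and 0.35, and DNER, another, by 0.14 and 0.27. DLL3 was called lower with shCHAF1B-2 (-0.63) and not with shCHAF1B-1 (-0.32).

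The 9 genes of receptor cleavage encode proteases and the other subunits of gamma-secretase. Of these, 5 were called higher and 1 lower under both hairpins, against 23.8% and 20.8% of all tested genes. PSEN2, a catalytic subunit of gamma-secretase, had log2 fold changes of 0.64 and 0.59 (larger edgeR adjusted p = 3.9e-07). ADAM17, a sheddase, rose by 0.51 and 0.53, FURIN, which processes the receptor precursor, by 0.61 and 0.51, and NCSTN, a non-catalytic gamma-secretase subunit, by 0.31 and 0.25. ADAM10, the main ligand-dependent sheddase, fell by 0.31 and by 0.20 (larger edgeR adjusted p = 0.00297).

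Of the 9 glycosyltransferases that modify the receptors' extracellular repeats, 4 were called higher and 1 lower under both hairpins. For all tested genes these shares were 23.8% and 20.8%. LFNG, a Fringe enzyme that alters the choice between Delta-like and Jagged ligands, rose by 1.5 and 1.44 (larger edgeR adjusted p = 2.0e-07). The xylosyltransferase GXYLT1 rose by 0.71 and 0.79, EOGT by 0.34 and 0.38 and GXYLT2 by 0.51 and 0.72, and POFUT1, which adds the fucose that Fringe extends, fell by 0.21 and by 0.24. MFNG, another Fringe enzyme, had 2.15, 2.21 and 4.85 CPM with shCHAF1B-1 and 1.54, 1.45 and 1.47 CPM under shCHAF1B-2, against 0.809, 0.717 and 1.02 CPM with shGFP. Its highest value lay in the library with B lymphocyte transcripts. MFNG was called with shCHAF1B-1 (1.84) but not with shCHAF1B-2 (0.80, edgeR adjusted p = 0.0600), and without that library it was called with both, at 1.36 (adjusted p = 7.5e-05) and 0.81 (adjusted p = 0.00407).

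In the nucleus the directions were mixed. Of 8 coactivators, 3 were higher and 2 lower under both hairpins, beside 23.8% and 20.8% of all tested genes. The acetyltransferase KAT2B rose by 1.49 and 1.55 (larger edgeR adjusted p = 1.4e-09), MAML3 by 0.56 and 0.42 and MAML2 by 0.43 and 0.37. MAML1 fell by 0.21 and by 0.27 and KAT2A by 0.18 and by 0.28. MAML proteins are the scaffold that joins cleaved Notch on RBPJ. Of 14 corepressors at RBPJ, 2 were higher and 3 lower, shares below or near the 23.8% and 20.8% of all tested genes. TLE3, a Groucho corepressor, rose by 0.64 and 0.50 and the demethylase KDM5A by 0.25 and 0.25. RITA1, which carries RBPJ out of the nucleus, fell by 0.40 and by 0.43, TLE4 by 0.29 and by 0.41 and CIR1 by 0.17 and by 0.15. The CIR1 call sat at the threshold (larger adjusted p = 0.0488), and without shCHAF1B-1 replicate 3 the corepressors called lower numbered 2.

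Receptor and ligand endocytosis and turnover, the group in which NUMB acts, had 16 tested genes. Under both hairpins 9 were called higher and 0 lower, against 23.8% and 20.8% of all tested genes. The ubiquitin ligase ITCH rose by 0.73 and 0.76 (larger edgeR adjusted p = 1.5e-08), NEDD4, of the same ligase family, by 0.54 and 0.60, and NUMBL, the paralogue of NUMB, by 0.99 and 0.79. MIB1, the ligase that drives ligand endocytosis, rose by 0.39 and 0.44 and FBXW7, which marks cleaved Notch for degradation, by 0.29 and 0.33. NEURL1B and EPN1 were called lower with shCHAF1B-2 (-0.22 and -0.27) and not with shCHAF1B-1 (-0.21 and -0.12). DTX1, an E3 ligase of the same list, was not tested: it had 504 counts in shCHAF1B-1 replicate 3 and 1 to 5 counts in each other library.

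Of 5 tested HES family and feedback genes, 1 was called higher under both hairpins, near the 23.8% share of all tested genes. HES2 rose by 0.71 and 0.53 (larger edgeR adjusted p = 6.1e-06). NRARP, a feedback inhibitor induced by Notch, was at 0.02 and -0.39, HES4 at 0.01 and -0.55, HES6 at 0.13 and 0.11 and HES7 at 0.02 and -0.40, none of them called. Of 10 tested genes reported elsewhere as Notch targets, 5 were higher and 1 lower under both, against 23.8% and 20.8% of all tested genes. SOX9, a progenitor transcription factor, rose by 2.04 and 1.90 (larger edgeR adjusted p = 4.0e-10), the cytokine receptor gene IL7R by 1.11 and 1.02, and SNAI2, a repressor of epithelial genes, by 0.79 and 0.88. The cell cycle inhibitor gene CDKN1A rose by 0.68 and 0.60 and CCND1, for cyclin D1, by 0.53 and 0.45, while MYC, a growth-promoting transcription factor, fell by 0.48 and by 0.47. These genes have many other inputs besides Notch.

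**Figure D5:**
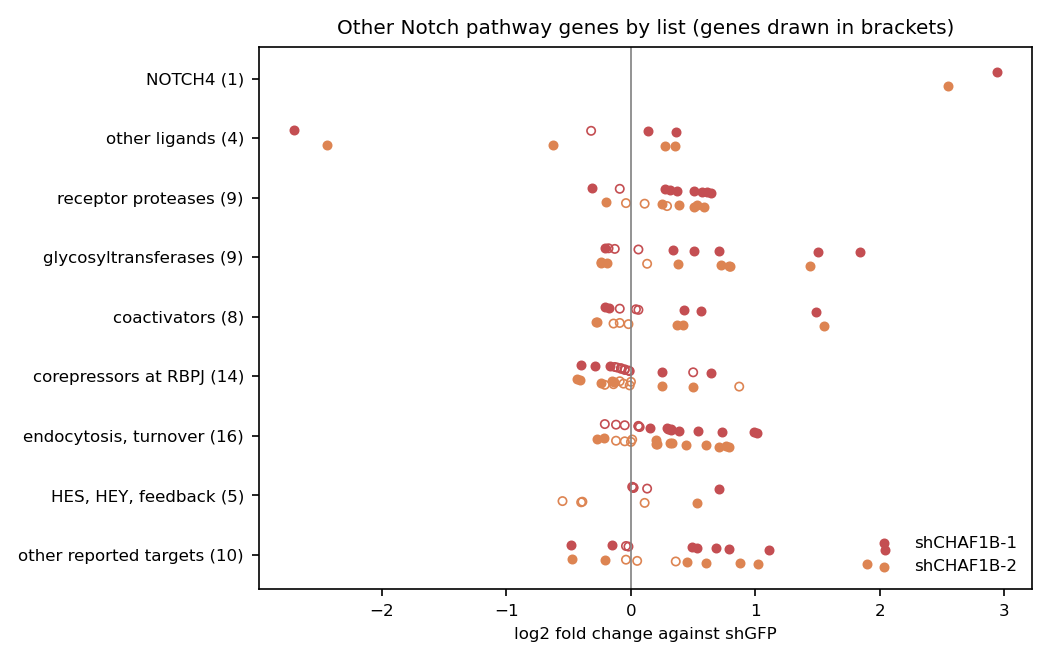
Log2 fold change against shGFP of the tested pathway genes beyond the members, by functional list, with the number of genes drawn in brackets; filled points passed an adjusted p of 0.05 in edgeR. MFAP2, with 0 counts in all shGFP libraries, is not drawn. NOTCH4, MFAP5 and TLE2 passed the filter only through the side with more counts. The filled points of NOTCH4 and MFAP5 are therefore not used as support. The endocytosis and turnover list lies mostly right of 0, and the corepressors lie on both sides.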

How the data were processed

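Polyadenylated RNA was sequenced after TruSeq preparation, per the labels' protocols, which does not mark strand. Tools listed per the submitters' processing notes are DESeq2 1.18.1, HTSeq 0.8.0 and STAR 2.5.3a, with builds hg38 and mm10. The authors deposited whole-number counts per gene, not normalized. Identifiers were matched to GENCODE 29 (26149 of 26186). Here counts were filtered (filterByExpr: minimum count 10, minimum total 15), scaled by TMM and tested with edgeR 4.0.16 (R 4.3.3) in 1 quasi-likelihood fit of all 9 libraries, with Benjamini-Hochberg adjustment over 16235 genes and a threshold of 0.05. Alternatives used limma 3.58.1, DESeq2 1.42.0, other scalings, filters and thresholds, and fits without each library. The procedure was tested on simulated data. Groups came from the sample titles. Members, gene lists and tests were chosen with earlier results of these data known. From each list, up to 3 genes with the smallest larger adjusted p of the hairpins were named, plus every gene where a count of 5 or fewer needed it; MFNG, DLL3, DTX1, NEURL1B, EPN1, MIB1 and FBXW7 were named after their values were seen. Some genes that this rule names are not reported here. Levels between genes used counts per kilobase of merged exons. Depth of 24339914 to 31819468 counts puts a floor of 3 counts at 0.0943 to 0.123 CPM.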

Additional observations from a re-analysis of the deposited data

How the results depend on the processing

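No alternative reversed a called Notch gene. A change of at least 1.5-fold on top of the adjusted p left 3203 genes with shCHAF1B-1, 2982 with shCHAF1B-2 and 3120 for the mean of both, and 2, 2 and 2 of the Notch members (NOTCH2 and HEY1), since this rule is stricter by construction. Leaving out each library in turn gave 7668 to 9042 genes with shCHAF1B-1, 7281 to 8444 with shCHAF1B-2, 8255 to 9477 for the mean of both and 0 to 0 between the hairpins; members called ranged from 5 to 7, 6 to 7, 6 to 8 and 0 to 0. The replicate numbers did not pair the libraries (correlations of same-numbered deviations from -0.138 to 0.10); with the replicate block, 8305, 7981, 8913 and 0 genes and 6, 7, 7 and 0 members were called. Apart from the 1.5-fold rule, the calls that depended on a setting were those of NOTCH1 with shCHAF1B-1, of JAG2 with either hairpin and their mean, of NOTCH3 with shCHAF1B-1 and the mean, and of HES1 with shCHAF1B-2 and the mean, given with their values in the report, and an adjusted p under 0.01 also removed the NOTCH1 call with shCHAF1B-1, the JAG2 call with shCHAF1B-2 and the HES1 call for the mean; the cause was not tested. DLL1 did not pass the filter on low counts, and NOTCH3 and HEY1, both scarce, had wide intervals. The cause of that width was not tested.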
